A study of Mus musculus with 2 samples.

Results

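Nell1 and Nell2, the genes of a small family of secreted glycoproteins, were examined together with 8 genes of reported Nell receptors and their close relatives: Itgb1, Cntnap1, Cntnap2, Cntnap4, Atraid, Robo1, Robo2 and Robo3. The members were taken by gene symbol, as every probe set that the platform annotation gives exactly 1 gene symbol equal to a listed name. All 10 genes were measured, by 22 of the 45037 non-control probe sets, out of 18193 genes with such a probe set. A probe set is a group of short probes that reads 1 transcript or several similar ones, and its value here is a linear MAS5 signal in arbitrary units.

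Total RNA came from ATDC5 cells, a mouse line able to form cartilage cells. In both groups serum-starved cells first received cycloheximide (CHX), which blocks protein synthesis, at 10 µg/ml for 30 min. The control group, CHX+PBS, then received PBS, and the other group, CHX+Nell-1, received recombinant human Nell-1 at 100 ng/ml, each for another 30 min. The study sought genes that respond to Nell-1 without new protein being made. Each group has 1 array of 1 culture of 1 line, so every ratio below compares 2 RNA samples, has no replicate check and no error between cultures, and no test could be run. In bulk RNA, fewer cells expressing a gene and less RNA per cell cannot be told apart.

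Nell-1 carries a thrombospondin-like domain, von Willebrand factor type C domains and EGF-like repeats, and is known for promoting bone and cartilage formation, while Nell2 is known mainly from neurons. Integrin beta 1 (Itgb1) pairs with alpha subunits into receptors for extracellular matrix and has been reported to mediate cell attachment to Nell-1. The contactin-associated proteins (Cntnap) are neurexin-like membrane proteins of neurons, of which Cntnap4 has been reported as a Nell-1 receptor on bone-forming cells. Atraid, also called Apr3, is a membrane protein reported to bind Nell-1. The Robo receptors guide growing axons in response to Slit ligands, and Robo3 has been reported as a receptor for Nell2. The protein added to the cells was human and the probe sets read RNA, so the Nell1 and Nell2 values describe the cells' own mouse transcripts.

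The regions before the start sites are shown for 3 members with contrasting values: Itgb1, which was higher with Nell-1, Atraid, which had the brightest signal of the members and was nearly equal on both arrays, and Nell1, which was near the bottom of the signal range on both. Each run is the 250 bases before a RefSeq start in GRCm38.p6, 5′ to 3′ on the gene's strand, with capitals marking GC boxes (GGGCGG on either strand), the letters bound by Sp1-type factors. The positions are chr8:128685404-128685653 on the + strand for Itgb1, chr5:31048390-31048639 on the + strand for Atraid and chr7:49975100-49975349 on the + strand for Nell1.
Itgb1: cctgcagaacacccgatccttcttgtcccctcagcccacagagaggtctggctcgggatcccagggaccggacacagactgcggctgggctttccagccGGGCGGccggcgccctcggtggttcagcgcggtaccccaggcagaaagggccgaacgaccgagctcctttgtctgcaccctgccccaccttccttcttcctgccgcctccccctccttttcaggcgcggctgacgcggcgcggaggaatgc
Atraid: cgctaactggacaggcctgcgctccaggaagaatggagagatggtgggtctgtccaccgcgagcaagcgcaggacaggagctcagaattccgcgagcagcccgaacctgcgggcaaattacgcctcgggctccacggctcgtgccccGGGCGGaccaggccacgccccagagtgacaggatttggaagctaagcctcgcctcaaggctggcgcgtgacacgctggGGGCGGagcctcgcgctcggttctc
Nell1: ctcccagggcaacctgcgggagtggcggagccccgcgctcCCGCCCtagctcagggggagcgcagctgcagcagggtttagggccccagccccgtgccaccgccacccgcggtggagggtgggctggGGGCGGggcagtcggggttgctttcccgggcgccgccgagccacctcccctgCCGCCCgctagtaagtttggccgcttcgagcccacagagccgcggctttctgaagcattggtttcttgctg

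All 3 windows were rich in G and C, at 68.0% for Itgb1, 66.4% for Atraid and 72% for Nell1, against a median of 52.4% over the 32851 windows of the RefSeq table. They held 21, 24 and 22 CpG steps, where the median over all windows was 6. Base composition was thus much alike in the brightest member and in Nell1, which was read near the bottom of the range. The Itgb1 window held 1 GC box, the Atraid window 2 and the Nell1 window 3, and 32.7% of all windows held at least 1. RefSeq windows were matched for 7 of the 10 genes, 10 windows in all because Cntnap2 and Robo2 have several starts, and 5 of the 10 held a GC box. The RUNX core TGTGGT, whose factors drive bone and cartilage genes, was in none of these 10 windows and in 14.0% of all windows, on either strand. The AP-1 site TGACTCA, with 4.46% of all windows, and the EGR site GCGTGGGCG, with 0.536%, were also in none of the 10. The NFAT core GGAAA was in 9 of the 10, all but that of Atraid, and in 55.6% of all windows. The 5 motifs were chosen with the values known. A match to these letters is a description of the sequence, and a missing match says only that the letters are not in this window.

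Most of the members were read near the bottom of the signal range. Only 5 of the 22 probe sets, belonging to 3 genes, had a mean signal over both arrays at or above 64.3, the median of all non-control probe sets. These were the single Atraid probe set, 3 of the 6 Itgb1 probe sets and 1 of the 2 Robo3 probe sets. The other 17 lay below it, and Nell1, Nell2, Cntnap1, Cntnap2, Cntnap4, Robo1 and Robo2 had no probe set above it. The nearest on either side were Robo3 at a mean of 99.3 and Robo1 at 51.7. As a yardstick for silent genes, 86 probe sets of chemosensory receptors, which are genes of sensory cells, had a median of 18.0, a 95th percentile of 75.6 and a maximum of 98.3. The same 5 member probe sets lay above that maximum, Robo3 only just. Probe sets differ in how strongly they bind their target, so a signal places a gene roughly in or out of the background range and does not rank genes by abundance.

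**Figure D1:**
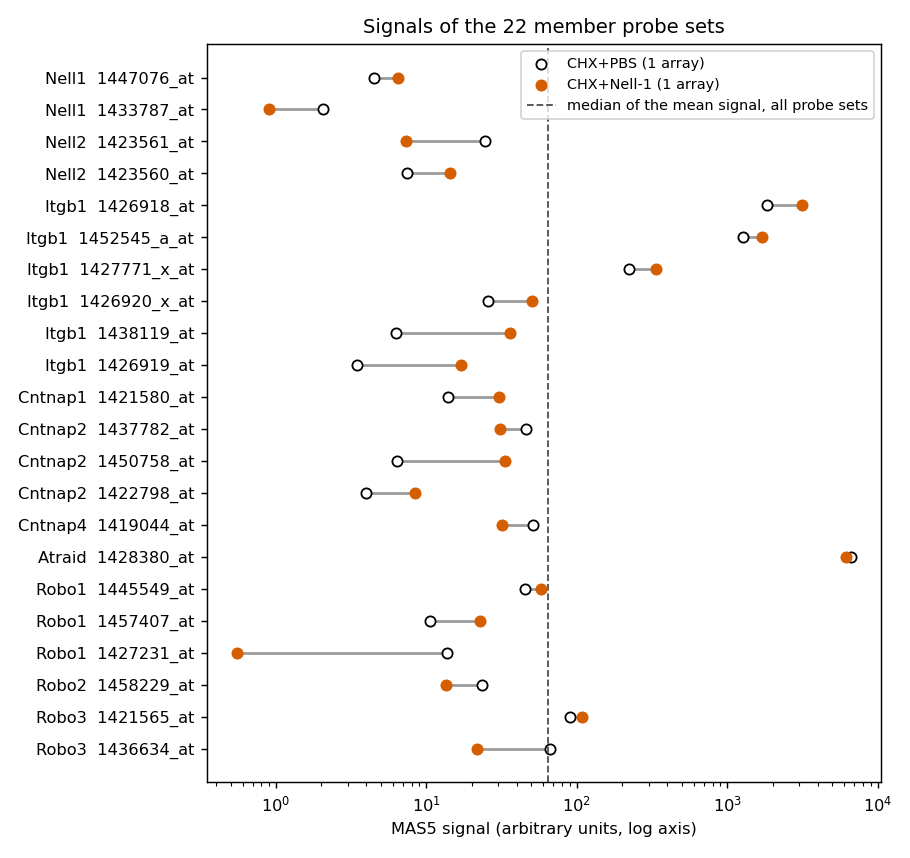
MAS5 signal (log axis, arbitrary units) of each of the 22 member probe sets on the CHX+PBS array (open) and the CHX+Nell-1 array (filled), with the median mean signal of all probe sets, 64.3, as a dashed line. Atraid and 3 Itgb1 probe sets lie far to the right of the line, 1 Robo3 probe set lies just right of it, and all other probe sets have their mean below it.

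Itgb1 was the only member at least 1.5-fold different between the arrays on a probe set above the median signal. The threshold of 1.5-fold is the one in the study's own filter. Of the 5 member probe sets above the median signal, 2 passed it upward with Nell-1, both of Itgb1, none passed it downward and 3 did not pass. The 22519 probe sets at this level passed upward in 5.97% and downward in 8.48%. Dividing each array by its median, which moves the median log2 ratio of all probe sets from -0.06 to 0.09, turned that split from 1344 higher and 1910 lower into 2408 and 1242. The member count of 2 and 0 was the same after that division. With 5 probe sets from 3 genes, 3 of them annotated to the same gene, the members' count is too small to be read as a share against this background.

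Itgb1 encodes the beta subunit shared by most integrins that bind collagen, laminin and fibronectin. Its brightest probe set, 1426918_at, gave a signal of 1830 with PBS against 3159 with Nell-1. That is 1.73-fold higher with Nell-1, a log2 ratio of 0.79. In the tenth of all probe sets with the brightest signals, to which it belongs, the robust SD of the log2 ratio (from the median absolute deviation) was 0.21, and 1.33% of 4504 probe sets passed 1.5-fold upward. That spread mixes measurement noise with real differences between these cultures.

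The next brightest, 1452545_a_at, gave 1272 with PBS against 1712 with Nell-1, 1.35-fold higher. It did not reach the threshold, and its log2 ratio of 0.43 compares with a robust SD of 0.28 at its signal. The third, 1427771_x_at, gave 223 and 338, which is 1.51-fold higher, just past the threshold, with a robust SD of 0.43 at its signal. These last 2 were designed on 1 target sequence record, and the first on another. The suffixes _a_at and _x_at mark probe sets that read several transcripts of a gene or share probes with other sequences.

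The remaining 3 Itgb1 probe sets lay below the median signal and were also higher with Nell-1. 1426920_x_at gave 25.5 with PBS against 50.2 with Nell-1, 1438119_at gave 6.31 and 35.8, and 1426919_at gave 3.46 and 16.9. Their log2 ratios of 0.98, 2.50 and 2.29 are larger than those of the bright probe sets, at signals where the robust SD was 1.49, 2.23 and 1.84. 1426920_x_at and 1426919_at share their target record with 1426918_at, which read the same RNA at a signal more than an order of magnitude brighter. So the 6 probe sets of this gene had 1 sign but a range of 2.08 in the log2 ratio.

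Agreement in sign over 6 probe sets was uncommon but not particular to Itgb1. Of 244 genes with exactly 6 probe sets, 17 were higher with Nell-1 on all 6, which is 6.97%, and 16 were lower on all 6. Another of the 17 was Enah, an actin regulator that acts downstream of Robo receptors, named here after its values were seen. Its brightest probe set gave 4251 with PBS against 6068 with Nell-1, 1.43-fold higher. Probe sets of 1 gene read the same pair of RNA samples, so their agreement bears on the measurement and not on how the difference would repeat in other cultures.

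The sign for Itgb1 did not depend on how the arrays were scaled. Over 4 rescalings and 2 treatments of low signals, the brightest probe set stayed between 0.78 and 0.94. The second brightest stayed between 0.42 and 0.58 and below the threshold. 1427771_x_at was past the threshold as deposited and in 5 of the 6 treatments, and below it, at 0.56, with 17.9 (the 25th percentile of the mean signal) added to both signals. The dimmest, 1426919_at, went from 2.29 as deposited to 0.71 with that addition, and to 0 when signals below 17.9 were raised to it, since both of its signals lie under that value.

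**Figure D2:**
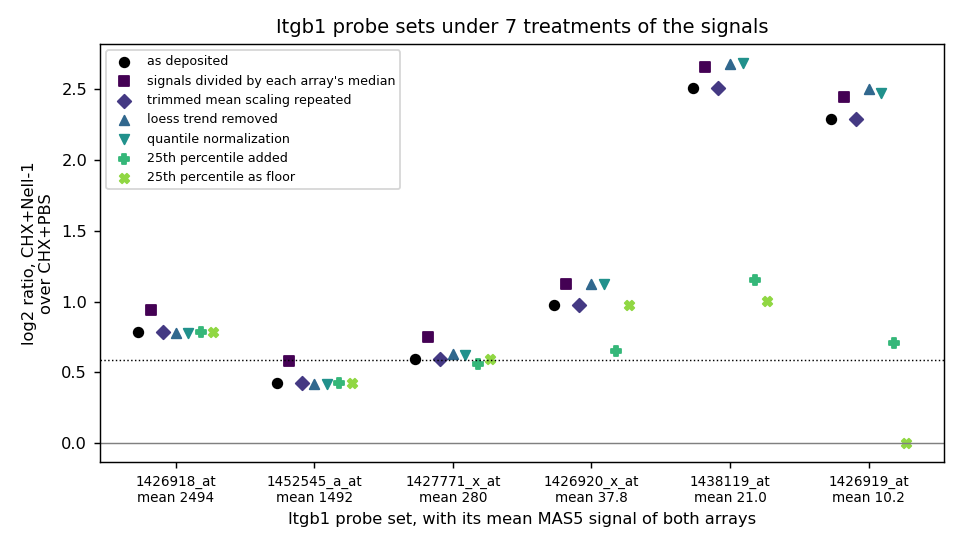
Log2 ratio of the signal with Nell-1 to that with PBS (vertical axis) for each of the 6 Itgb1 probe sets, ordered by mean signal from left to right, as deposited and under 6 other treatments of the signals (symbols), with the 1.5-fold threshold as a dotted line. The 3 bright probe sets on the left keep nearly the same value throughout, while the 3 dim ones on the right depend on how low signals are treated, and no value lies below 0.

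Measures of RNA quality and of the added controls stood as follows beside the Itgb1 difference. The ratio of the 3′ to the 5′ control probe set was 1.32 with PBS against 1.28 with Nell-1 for Actb, and 0.848 and 0.858 for Gapdh, nearly the same on both arrays. The 24 poly-A spike-in probe sets, bacterial RNAs added before labelling, were all lower on the Nell-1 array with a median log2 ratio of -0.49, and the 18 hybridisation spike-ins were all lower with a median of -0.18. Those differences run in the direction opposite to that of Itgb1, and their part in the Itgb1 value was not tested.

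The genes whose pair of signals was most like that of Itgb1 were Nolc1, Cetn2 and Rabggtb. They are the 3 with the closest log2 ratio among 1661 genes whose mean signal was within 1.5-fold of its own, over 2 arrays. Nolc1, a nucleolar phosphoprotein gene, read 1763 with PBS against 3070 with Nell-1 (log2 ratio 0.80). Cetn2, encoding the centriole protein centrin, read 1390 against 2376 (log2 ratio 0.77). Rabggtb, a subunit of the enzyme that attaches lipid to Rab proteins, read 1586 against 2770 (log2 ratio 0.80). Above the median signal, only 1 of 3 Nolc1 probe sets passed 1.5-fold upward. At this level 2 of 2 Cetn2 probe sets and 1 of 1 for Rabggtb passed. Such likeness of the brightest probe sets over 2 arrays means no more than a similar level and a similar ratio.

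Atraid was read brightly and nearly alike on both arrays. It encodes a membrane protein named for its induction by all-trans retinoic acid. Its single probe set, 1428380_at, gave 6629 with PBS against 6139 with Nell-1. That is a log2 ratio of -0.11, 1.08-fold lower with Nell-1, less than the robust SD of 0.21 at its signal. Divided by each array's median its ratio was 0.04, so its sign depends on the scaling.

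The Nell genes themselves were at the level of silent genes. Nell1, the mouse gene for the added protein, gave 4.50 with PBS against 6.48 with Nell-1 on 1447076_at, and 2.07 and 0.898 on 1433787_at. The probe sets went opposite ways, and by mean signal they lay at percentiles 8.69 and 0.897 of all probe sets. Nell2 gave 24.7 with PBS against 7.33 with Nell-1 on 1423561_at, and 7.44 and 14.4 on 1423560_at, again in opposite directions although both were designed on the same target record. No direction can be read for either gene, and a transcript level too low for these probe sets cannot be told apart from none.

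The contactin-associated genes were also read within the range of silent genes. Cntnap1, a protein of the junctions between axon and myelin, gave 14.0 with PBS against 30.2 with Nell-1. Cntnap4 gave 51.0 with PBS against 31.8 with Nell-1, 1.60-fold lower. Both are single probe sets, and Cntnap4 had a log2 ratio of -0.68 where the robust SD was 0.93.

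Cntnap2, which clusters potassium channels along axons, had 3 probe sets that disagreed. 1437782_at gave 45.7 with PBS against 30.9 with Nell-1, 1450758_at gave 6.40 and 33.1, and 1422798_at gave 3.95 and 8.40. The brightest was lower with Nell-1 and the other 2, designed on 1 target record, were higher. The log2 ratios ran from -0.56 to 2.37.

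Among the Robo receptors, Robo3 had a probe set above the median signal. 1421565_at gave 90.4 with PBS against 108 with Nell-1, 1.20-fold higher. That is a log2 ratio of 0.26 where the robust SD was 0.62. Its other probe set, 1436634_at, gave 66.9 with PBS against 21.8 with Nell-1, 3.07-fold lower. The 2 Robo3 probe sets thus gave opposite directions, and the mean of their log2 ratios was -0.68.

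Robo1 and Robo2 were below the median signal throughout. Robo1 gave 45.3 with PBS against 58.1 with Nell-1 on 1445549_at, 10.6 and 22.6 on 1457407_at, and 13.7 and 0.556 on 1427231_at. The last is the largest ratio of any member, 24.7-fold lower, and it rests on signals that are both under 17.9. With 17.9 added to both signals it became a log2 ratio of -0.78 in place of -4.62. Robo2, on its single probe set, gave 23.3 with PBS against 13.5 with Nell-1, 1.73-fold lower, a fold about as large as the one of Itgb1 but at a signal where the robust SD was 2.23 and not 0.21.

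Of the 17 probe sets below the median signal, 8 passed 1.5-fold upward, 6 passed it downward and 3 did not pass. The 22518 probe sets at that level passed upward in 29.1% and downward in 37.6%, together 66.7%. Passing the 1.5-fold filter was thus the usual state of a probe set at this level, for the chemosensory receptors as well, of which 68.6% passed. With 17.9 added, 8 of the 17 still passed, 5 higher and 3 lower. Of the 6 members with more than 1 probe set, 5 had probe sets of both signs, all but Itgb1, where 55.3% of 9010 genes with 2 or more probe sets did.

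**Figure D3:**
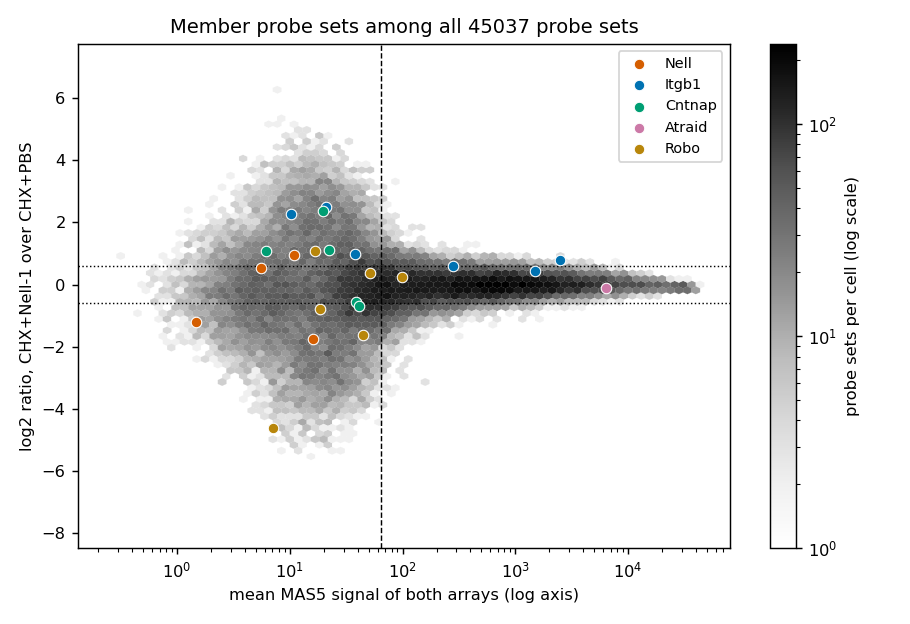
Log2 ratio of the signal with Nell-1 to that with PBS against the mean signal of both arrays (log axis) for all 45037 probe sets (grey, darker where more probe sets lie), with the 22 member probe sets in colour by family, the 1.5-fold thresholds dotted and the median signal dashed. The cloud widens toward low signals, where 17 member probe sets lie, and narrows to the right, where the brightest Itgb1 probe set at 0.79 lies at the upper edge and Atraid at -0.11 lies inside.

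The partners of these receptors were described from 8 lists of 104 genes, of which 67 were measured above the median signal. Over those 67, 3 passed 1.5-fold upward and 11 downward, and the median log2 ratio was -0.14. The 11600 genes at this level passed upward in 4.56% and downward in 7.53%, and their median was -0.03. After division by each array's median the 67 split into 7 higher and 6 lower. Because the filter uses the mean, a gene can enter through the array on which it is high. Where both signals had to lie above the median of their own array, 2 were higher and 8 lower, without Flrt3, Itga8, Srgap1 and Itgbl1. The spike-in RNAs, described beside Itgb1, were also lower on the Nell-1 array, by a median log2 ratio of -0.49 for poly-A and -0.18 for hybridisation controls. Their part in the lower values of the lists was not tested.

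Integrin alpha subunits were mostly lower with Nell-1. The list was drawn up for partners of beta 1, but also holds Itga2b, the platelet subunit that pairs with beta 3. Of 9 read above the median signal, 4 passed 1.5-fold downward, none upward and 5 did not pass, by brightest probe set. The median log2 ratio of the 9 was -0.50, and 8 of 9 lay below 0, where 54.2% of all genes at this level did. Itga3 and Itga9 each had 1 of 2 probe sets at this level past 1.5-fold upward, and Itga5 had 1 of 2 past it downward. Without Itga2b, a choice made after seeing the data, the median was -0.58 with 7 of 8 below 0. The poly-A spike-ins had a median of nearly the same size, -0.49, while the median of all genes at this level was -0.03. The part of the spike-in difference in the alpha subunit values was not tested. Itga8, a nephronectin receptor subunit, gave 88.4 with PBS against 41.0 with Nell-1, 2.15-fold lower. It was counted through its PBS signal alone, and with both signals above the median of their array 3 of 8 passed downward and the median was -0.45. Itga1, a collagen receptor subunit, gave 144 and 83.4, 1.73-fold lower. Itga10, the collagen receptor subunit of cartilage, gave 117 and 72.1, and Itga7, a laminin receptor subunit, gave 128 and 81.3, 1.62-fold and 1.58-fold lower.

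These 4 genes had signals at which lower ratios were common. All 4 had mean signals between 64.3 and 121, a range in which 22.8% of probe sets passed 1.5-fold downward. The 3 brightest of the other alpha subunits did not pass on their brightest probe sets. Itgav, the subunit of vitronectin receptors, gave 4062 with PBS against 4554 with Nell-1, which is 0.16 on the log2 scale. Itga3 gave 789 and 595, a log2 ratio of -0.41, while another of its probe sets passed 1.5-fold upward, and Itga2b gave 587 and 526, a log2 ratio of -0.16. The median of the list was below 0 in every scaling tried, from -0.50 to -0.35, with 2 to 4 genes past 1.5-fold downward. Over all alternatives the median ran from -0.66 to -0.16, the latter with only genes above the 75th percentile of signal.

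Of 8 other genes for beta subunits or beta-like proteins, 2 were above the median signal. Itgb5, which pairs with Itgav, gave 8423 with PBS against 7161 with Nell-1 (log2 ratio -0.23), with all 4 probe sets lower. Itgbl1, a secreted protein with integrin-like EGF repeats, gave 92.8 and 61.6, 1.51-fold lower, with its Nell-1 signal under the median of that array. Itgbl1 did not pass in 4 of the 6 other treatments of the signals, and the median of both genes stayed below 0.

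Adaptors and kinases that act at integrin tails included 14 genes above the median signal. Of these 2 passed 1.5-fold downward, none upward and 12 did not pass, and the median was -0.14. Zyx, the focal adhesion protein zyxin, gave 5079 with PBS against 3096 with Nell-1, 1.64-fold lower, and Src, the tyrosine kinase, gave 1017 and 635, 1.60-fold lower. Both were lower by 1.5-fold on each of their 2 probe sets. Vcl (vinculin) at -0.18, Fermt2 (kindlin-2, which activates beta 1 integrins) at -0.03 and Pxn (paxillin) at 0.01 were the brightest of the rest. With division by the array median neither Zyx nor Src passed and the median was 0.01.

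Ligands and membrane partners of Robo included 8 genes above the median signal. Of these 2 passed 1.5-fold upward, 1 downward and 5 did not pass, and the median of -0.10 became 0.05 with division by the array median. Sdc2, a heparan sulfate proteoglycan of the family that helps Slit reach Robo, gave 4827 with PBS against 2171 with Nell-1. That is 2.22-fold lower, with 3 probe sets above the median signal, each past 1.5-fold. Slit3, a Robo ligand, gave 109 with PBS against 205 with Nell-1, 1.89-fold higher, and Flrt3, a membrane protein that binds Robo1, gave 39.0 and 108, 2.77-fold higher. Both rest on low signals, at which 7.82% of probe sets for Slit3 and 13.5% for Flrt3 passed 1.5-fold upward. Flrt3 was counted through its Nell-1 signal alone, and with both signals above the median of their array 1 of 7 genes passed upward. The brightest others were Gpc1 at -0.13 and Sdc1 at -0.08, both heparan sulfate proteoglycans, and Lrig3 at -0.27.

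Cytoplasmic signalling partners of Robo included 16 genes above the median signal and were mostly alike on both arrays. Of these 1 passed 1.5-fold upward, 1 downward and 14 did not pass, and the median was -0.02, or 0.13 with division by the array median. Nck1, an SH2 and SH3 adaptor, gave 228 with PBS against 358 with Nell-1, 1.57-fold higher on 1 of 2 probe sets above the median signal. The other Nck1 probe set above the median signal was lower with Nell-1. Srgap1, a Slit-Robo GTPase activator, gave 87.4 and 49.5, 1.77-fold lower, and was counted through its PBS signal alone. With both signals above the median of their array none of 15 passed downward. The small GTPases Rhoa at 0.01, Rac1 at -0.22 and Cdc42 at 0.09 were the brightest. Those GTPases were read brightly in cells whose Robo1 and Robo2 probe sets were at background.

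Relatives and partners of the Cntnap proteins were mostly at background too, with 2 of 10 measured genes above the median signal. Cntn2, an axonal contactin that pairs with Cntnap2, gave 131 with PBS against 76.7 with Nell-1, 1.71-fold lower. It was above the median signal on 1 of its 4 probe sets, at a signal where 22.8% of probe sets passed 1.5-fold downward. Epb41l3, a cytoskeletal adaptor for Cntnap proteins, gave 3311 and 3011, a log2 ratio of -0.14.

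Genes reported to respond to Nell-1 included 9 above the median signal. By brightest probe set, 1 of these passed 1.5-fold downward and 8 did not pass, and the median was 0.09. With division by the array median 2 passed upward (Alpl and Sp7), 1 downward, and the median was 0.24. With each gene as the mean over its probe sets above the median signal, the list median was -0.11. Nfatc2, at -0.36 on its brightest probe set, had 3 at this level, 1 past 1.5-fold upward and 1 past it downward. Omd, encoding the bone keratan sulfate proteoglycan osteomodulin, gave 2231 with PBS against 911 with Nell-1, 2.45-fold lower. The brightest others were Ctnnb1 (beta-catenin) at 0.12, although 1 of its 3 probe sets passed 1.5-fold downward, Alpl at 0.55 and Sox9 at -0.39. Secreted proteins with the thrombospondin or von Willebrand type C domains of Nell-1 gave 7 above the median signal and none past 1.5-fold, with a median of -0.13 that became 0.02 with division by the array median. Thbs1 (thrombospondin 1) gave 15509 and 14723, Thbs2 gave 5274 and 4138, and Bmper, a BMP-binding protein, gave 545 and 499.

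**Figure D4:**
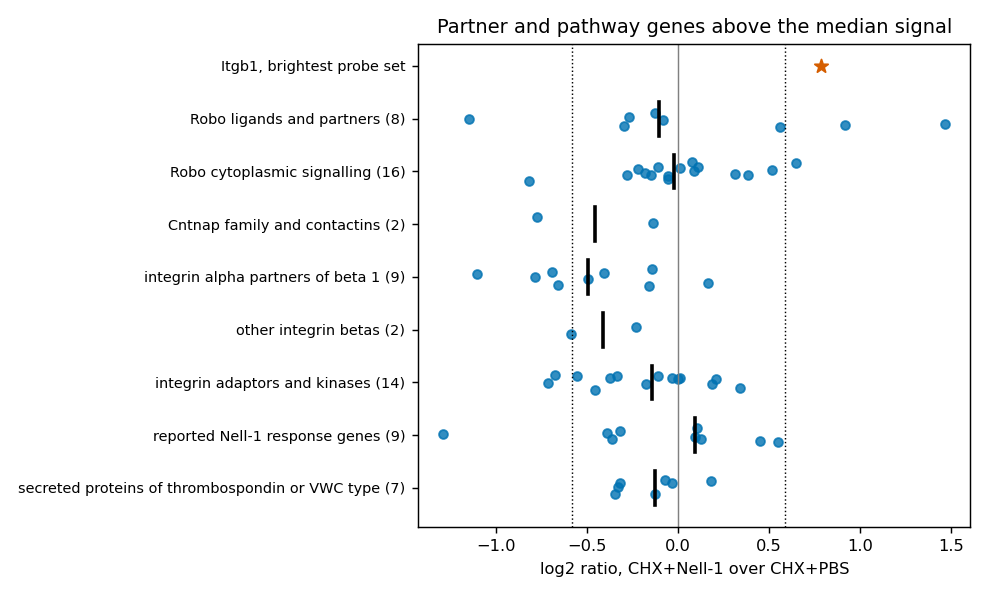
Log2 ratio of the signal with Nell-1 to that with PBS of each gene above the median signal in 8 lists of partner and pathway genes (points, brightest probe set, number of genes in parentheses), with the list medians as black bars, the 1.5-fold thresholds dotted and the brightest Itgb1 probe set as a star. The alpha subunits, Itga2b included, lie mostly left of 0 with a median of -0.50, while Itgb1 lies at 0.79.

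Markers of cell types gave the setting for these values. Chondrocyte markers were above the median signal for 7 of 12 genes, while Comp, Matn3, Hapln1, Matn1 and Col10a1 were below it. Summed over all 12, the signals were 6070 with PBS against 5734 with Nell-1. Sox9 makes up much of that sum, whereas the median log2 ratio of the 7 was 0.13. That median is the value of the brightest Sox5 probe set. Of the 4 Sox5 probe sets at this level 1 was higher and 3 were lower, 1 by more than 1.5-fold. By brightest probe set, Acan (1.67-fold) and Sox6 (1.62-fold) passed 1.5-fold upward and none of the 7 genes downward. At the signal of Acan and Sox6, 7.82% of probe sets passed upward. Sox6 passed on 3 of its 4 probe sets. Fibroblast and mesenchymal markers were above the median signal for 8 of 9, with 7 of the 8 lower and a median of -0.19. Of 4 measured osteoblast markers, Alpl and Sp7 were above the median signal and higher, with a median of 0.50. As deposited, neither passed 1.5-fold (1.46-fold and 1.36-fold). Ibsp (34.9 with PBS against 25.3 with Nell-1) and Dmp1 (29.1 against 2.36) were below the median signal and lower. Runx2, Bglap and Spp1 were not analysed. Of 10 neuron markers, relevant because Nell2, Cntnap and Robo genes are known from neurons, 3 were above the median signal (Tubb3, Map2 and Syt1). The summed signals of all 10 were 1032 with PBS against 1173 with Nell-1. Above the median signal were 3 of 6 oligodendrocyte and Schwann cell markers, none of 6 endothelial, 2 of 6 epithelial, 1 of 5 haematopoietic, 2 of 6 skeletal muscle, 2 of 4 adipocyte and 2 of 4 osteoblast markers. Their part in the Itgb1 value was not tested.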

How the data were processed

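The deposited values are intensities, linear MAS5 signals per probe set from 1 Affymetrix mouse array per group, made by the authors with Affymetrix Expression Console and MAS5, per the submitters' processing notes and the labels' protocols. Their versions: not given in the sources used here. The 2% trimmed mean, tested on the table, was 500.0 on both arrays. Table columns were matched to samples by name. The 64 control probe sets were left out, and 45037 remained. By the platform annotation 34945 of them have 1 symbol, 932 have several and 9160 none. The gene IDs of 34741 were in a RefSeq table of assembly GRCm38.p6, and none of the symbols differed.

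The measure was the log2 ratio of CHX+Nell-1 over CHX+PBS, with no constant added. Each gene is given by all its probe sets for the members, and by the brightest (mean of both arrays) elsewhere. The median signal was 64.3, and the spread was taken in 10 equal bins of mean signal. With 1 array per group no test, p-value or interval is given, and the number of arrays limits the precision. Detection calls were not used here. Code was tested on simulated arrays (Python 3.11.15, numpy 2.4.6, pandas 2.3.3, statsmodels 0.14.6).

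The members and lists were chosen with earlier results of these data known. Genes named from a list were those past 1.5-fold above the median signal (at most 5 with the largest ratios) and up to 3 others with the highest signal. Enah, Nfatc2, Itga5 and Itga9 were named after their values were seen. Listed genes without a probe set of 1 symbol were not analysed here. Alternatives were 4 rescalings, 17.9 as an added or a floor value, a 2-fold threshold, further filters on signal, other choices of probe sets and symbols as annotated.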

Additional observations from a re-analysis of the deposited data

How the results depend on the processing

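The count of 2 member probe sets at least 1.5-fold higher was the same under 8 of 13 alternatives. It was 1 with the 25th percentile added, above the 75th percentile of signal and without probe sets of the shared types, 0 at a 2-fold threshold and 10 with no signal filter. The count lower was 0 in 12 of 13 alternatives and 6 with no signal filter. The log2 ratio of Itgb1 was 1.26 as a mean over all 6 probe sets, because the dim ones have larger ratios, and within 0.60 to 0.94 in the other 9 alternatives. Of the pathway genes, 3 higher and 11 lower by 1.5-fold became 7 and 6 with signals divided by each array's median, 8 and 27 with no signal filter, 0 and 4 above the 75th percentile, and 1 and 3 at 2-fold. Itgb1 kept its sign in every alternative, as did Nell2, Cntnap1, Cntnap4 and Robo2. Of these last 4, only Nell2 has more than 1 probe set. As means over all probe sets, Nell1 (-0.34), Cntnap2 (0.96), Robo1 (-1.06) and Robo3 (-0.68) changed sign from their brightest probe set. Atraid (0.04) changed sign with signals divided by each array's median. With 1 array per group none could be left out. No paired analysis was possible because each group holds a single array. Low signal limits 17 of the 22 member probe sets.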
